A study of Homo sapiens with 8 samples.

Results

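The genes described here are 45 enzymes and core subunits that write or remove methyl groups on histones and DNA, taken by name from the 38637 genes of the deposited table, which held all 45 of them. They are the histone lysine demethylases and methyltransferases other than the KDM1 and KMT2 families, Polycomb repressive complex 2 (PRC2), the DNA methyltransferases and the TET dioxygenases. All 8 libraries came from SW1990, an established human pancreatic adenocarcinoma cell line, in 4 groups of 2 libraries each. Cells with the empty vector (Vector) were the control for cells overexpressing the transcription factor EBF2 (EBF2-OE). Vehicle-treated cells (Vehicle), which the labels also call mock, were the control for cells given GSK-LSD1, an inhibitor of the H3K4 demethylase KDM1A, at a labelled dose of 2000 µM. That dose is doubtful, since the study's text gives none for RNA-seq and names far lower doses of the compound for its blots. The labels give no treatment time, and nothing in them says whether the libraries of a group came from separate cultures, so that p-values measure the spread between these libraries only. Each experiment used 1 cell line, and whether EBF2-OE cells were 1 clone is not given in the sources used here.

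Lysine methylation of histones is set by methyltransferases that use S-adenosylmethionine and is removed by the flavin-dependent KDM1 enzymes or by the much larger family of Jumonji demethylases, which need iron and 2-oxoglutarate. Methylation of H3K4 and H3K36 accompanies active genes, whereas methylation of H3K9 and H3K27 accompanies repressed chromatin. DNA cytosine methylation is copied by DNMT1, laid down anew by DNMT3A and DNMT3B, and oxidised by the TET enzymes as a step to its removal. The comparisons ask whether inhibiting KDM1A or raising EBF2 was accompanied by different transcript levels of the other enzymes of these systems.

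Libraries held 20453362 to 27054876 counts on genes. EBF2 had 28 counts in both Vector libraries, 5818 in EBF2-OE 2 and 90100 in EBF2-OE 3, so that the EBF2-OE libraries differed widely in the overexpressed gene itself, and it had 24 to 40 counts in the other 4 libraries. The epithelial markers KRT7, KRT8, KRT18 and MUC1 had 123 to 3200 TPM (the deposited level per gene length and library total), while EPCAM, KRT19 and CDH1, which also mark pancreatic ductal epithelium, reached no more than 1.57 TPM in any library. Of 12 markers of other cell types, CD3E, INS and PRSS1 were at 0 in every library, and COL1A1, with 30.5 to 45.2 TPM, CD68, with 10.9 to 30.9 TPM, and COL1A2, with 6.56 to 10.2 TPM, were the highest. The libraries of a group differed by more than counting error in each group, with a chi-square per degree of freedom of 5.34 in GSK-LSD1, 6.23 in Vehicle, 25.6 in Vector and 32.9 in EBF2-OE.

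The sequences upstream of the genes whose values are described below are shown first, because KDM1A acts on promoter and enhancer chromatin and EBF2 binds DNA. RefSeq's promoter table of GRCh38.p14 held 42 of the 45 genes, not NSD3, SETD1B and DOT1L. Printed in lower case are the 250 bases before RefSeq's start of the 4 genes that fell most under GSK-LSD1 among those in the table. The windows of EHMT1, which also fell and holds an EBF palindrome, and of TET2, which did not fall, for contrast with its paralogue TET3, are added. RefSeq's start can differ from that of the deposited gene. Some windows therefore lie inside the deposited gene, among them those of TET3 (deposited start 73982036), KDM4C and DNMT3B. Capitals mark the GC box GGGCGG, which SP and KLF factors bind, on either strand.
KDM6B, chr17:7833967-7834216, forward strand: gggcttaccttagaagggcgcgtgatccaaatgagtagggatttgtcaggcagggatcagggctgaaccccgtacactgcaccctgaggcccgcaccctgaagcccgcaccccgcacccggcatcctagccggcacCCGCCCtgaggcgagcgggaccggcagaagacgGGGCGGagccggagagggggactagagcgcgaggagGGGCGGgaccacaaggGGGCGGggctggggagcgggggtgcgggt
KMT5C, chr19:55339626-55339875, forward strand: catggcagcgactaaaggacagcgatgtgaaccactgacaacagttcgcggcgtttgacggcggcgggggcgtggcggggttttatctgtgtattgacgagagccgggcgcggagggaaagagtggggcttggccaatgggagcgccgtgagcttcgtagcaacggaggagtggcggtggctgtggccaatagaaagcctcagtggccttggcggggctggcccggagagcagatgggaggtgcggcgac
TET3, chr2:73984660-73984909, forward strand: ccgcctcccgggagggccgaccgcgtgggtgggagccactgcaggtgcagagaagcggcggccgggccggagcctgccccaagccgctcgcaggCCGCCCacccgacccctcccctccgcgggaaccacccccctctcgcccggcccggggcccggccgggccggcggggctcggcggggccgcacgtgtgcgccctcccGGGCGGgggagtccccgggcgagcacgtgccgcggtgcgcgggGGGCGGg
KDM4B, chr19:4968863-4969112, forward strand: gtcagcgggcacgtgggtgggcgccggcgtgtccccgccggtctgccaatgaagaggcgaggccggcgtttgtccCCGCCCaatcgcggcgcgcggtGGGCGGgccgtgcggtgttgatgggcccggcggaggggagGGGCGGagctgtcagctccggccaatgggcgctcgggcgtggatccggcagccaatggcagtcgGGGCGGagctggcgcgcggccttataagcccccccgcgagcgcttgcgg
EHMT1, chr9:137618755-137619004, forward strand: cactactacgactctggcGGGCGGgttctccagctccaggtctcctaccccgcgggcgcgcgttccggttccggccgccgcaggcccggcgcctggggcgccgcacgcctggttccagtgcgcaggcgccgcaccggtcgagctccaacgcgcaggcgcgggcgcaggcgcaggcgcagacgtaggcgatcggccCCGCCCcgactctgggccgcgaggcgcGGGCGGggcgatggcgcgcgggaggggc
TET2, chr4:105145625-105145874, forward strand: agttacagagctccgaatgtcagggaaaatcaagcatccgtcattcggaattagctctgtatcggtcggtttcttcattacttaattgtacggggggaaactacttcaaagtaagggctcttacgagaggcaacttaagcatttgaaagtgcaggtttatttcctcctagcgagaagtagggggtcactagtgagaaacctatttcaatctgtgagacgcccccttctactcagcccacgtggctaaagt

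The GC box was present in 26 of the 42 promoters (61.9%), against 65.2% of the 11983 promoters of genes tested and 42.3% of all 27305 promoters in the table. Among genes that fell under GSK-LSD1 and had a promoter entry it was found in 9 of 10, all but KMT5C, and among the other members tested in 17 of 31. These windows also differed in base composition, with a median GC content of 70.0% in those 10 and 65.2% in the other 31. The EBF palindrome CCCNNGGG, read on both strands, was found in 7 of the 42 promoters (16.7%), those of KDM3A, KDM3B, EHMT1, SMYD3, ASH1L, SMYD2 and TET1, against 21.4% of the promoters of genes tested. Further motifs searched on both strands were CCAAT, which NF-Y binds (15 of 42 promoters), CCGGAAG of ETS factors (4 of 42), TTTNNCGC of E2F (5 of 42) and GCATGCGC of NRF1 (3 of 42), and the shares in the promoters of genes tested were 34.6%, 15.0%, 8.67% and 4.65%. A match is a match of letters only, the motifs may overlap one another, and no binding was measured.

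SW1990 cells expressed nearly the whole set. Averaged over the 8 libraries, 3 genes stood at 50 TPM or more, 33 between 10 and 50 TPM, 8 between 1 and 10 TPM and 1 below 1 TPM, with a median of 22.1 TPM. The highest were DNMT1, the maintenance DNA methyltransferase, at 95.0 to 129 TPM by library, KDM5C, an H3K4 demethylase, at 74.6 to 111 TPM, and EHMT2, the H3K9 methyltransferase G9a, at 64.8 to 89.2 TPM. DNMT1 lay above both others in each of the 8 libraries, whereas KDM5C lay below EHMT2 in the Vehicle libraries and above it in the other 6. At the other end, TET1 had 1 to 10 counts per library and was too low for a test in any comparison, which left 44 genes tested in each.

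**Figure D1:**
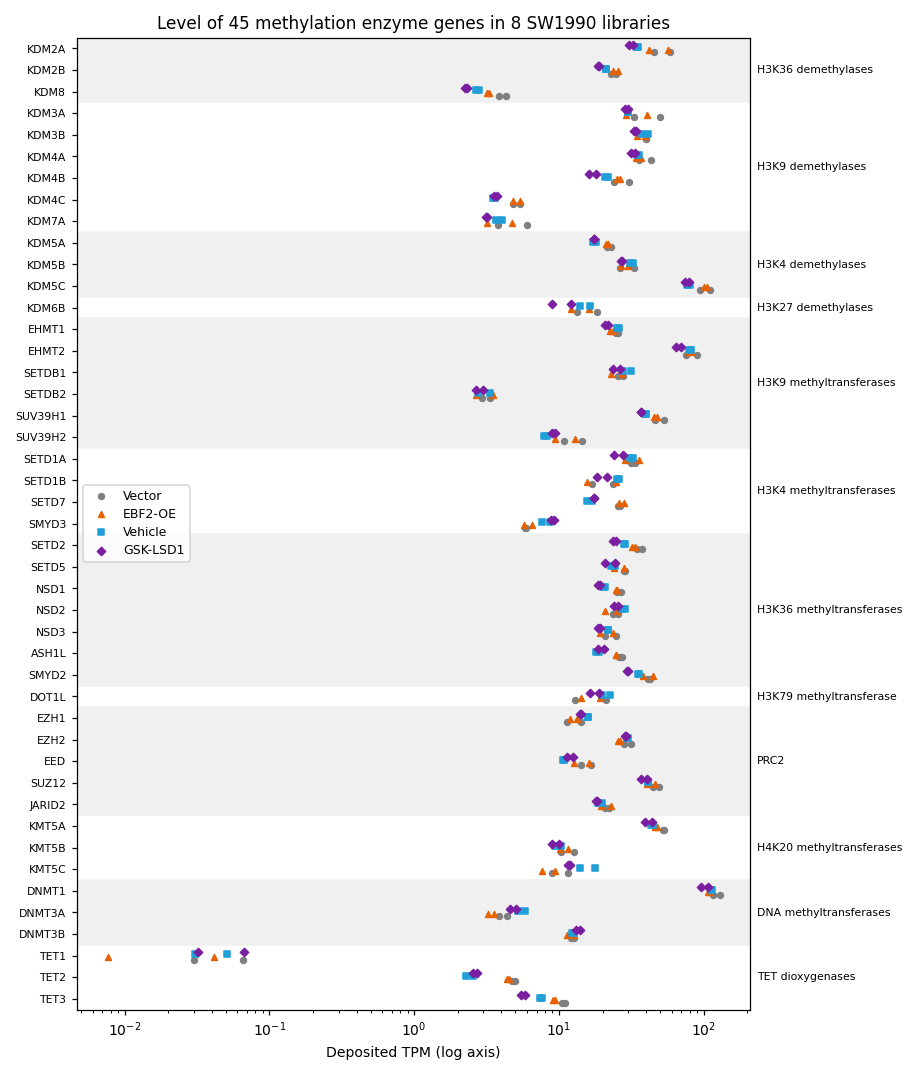
Deposited TPM on a log axis for each of the 45 genes (rows, grouped by enzyme class) in each of the 8 libraries, with 1 point per library and a colour and shape per group. DNMT1, KDM5C and EHMT2 lie furthest to the right, between 64.8 and 129 TPM, and TET1 lies alone below 1 TPM.

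Within families of paralogues, 1 member usually carried most of the TPM. EZH2, the main catalytic subunit of PRC2, made up 64.7 to 73.6% of the TPM of EZH1 and EZH2 together. EHMT2 made up 75.4 to 78.6% of the EHMT family and SUV39H1 76.1 to 83.4% of the SUV39H family. DNMT3B exceeded DNMT3A in every library with 68.5 to 77.7% of their sum, and KDM5C had 60.5 to 68.5% of the KDM5 family. Only the NSD family of H3K36 methyltransferases, among the families compared, was shared about evenly, with 29.1 to 38.3% for NSD1, 32.0 to 40.1% for NSD2 and 29.2 to 33.0% for NSD3. For the TET family, TET3 held 76.6% and 74.0% of the TPM in the Vehicle libraries and 68.0% and 67.7% in the GSK-LSD1 libraries. It held 67.5% and 69.5% in the Vector libraries and 67.5% and 67.2% in the EBF2-OE libraries, so that the Vehicle pair lay above the other 6.

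**Figure D2:**
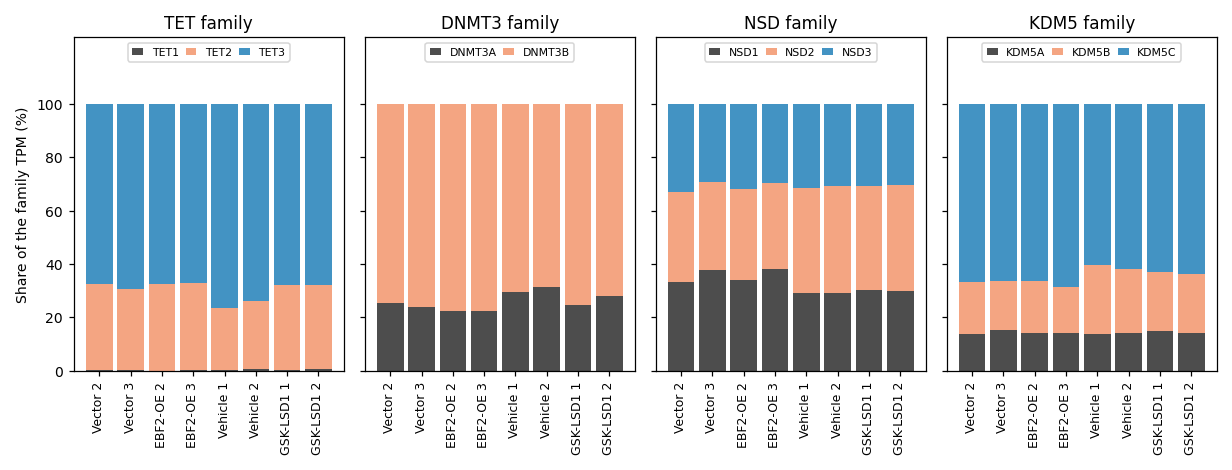
Share of the summed TPM of a family (%) held by each paralogue, stacked to 100 per library, for the TET, DNMT3, NSD and KDM5 families. TET3, DNMT3B and KDM5C hold the largest share of their family in all 8 libraries, and the TET3 share is highest in the 2 Vehicle libraries at 74.0 and 76.6%.

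GSK-LSD1 was compared with Vehicle first. With a fold change above 1.5 and an adjusted p-value under 0.05, 0 of the 44 genes tested were called by the quasi-likelihood test of edgeR, against 4.57% of all 16059 genes, and 0 were called by DESeq2 or at an unadjusted p under 0.05 with the same fold limit. Without a fold limit, 12 genes fell (27.3% of 44) and 0 rose, where 8.87% of all genes fell and 9.86% rose. The median SE was 0.0655 for the 44 genes and 0.0971 for all genes, and a smaller SE lets a smaller change pass. The part of this in the count was not tested. All the changes were small, with log2 fold changes of the 44 genes from -0.49 to 0.21. Their median was -0.12 against -0.01 for all genes tested, and 33 of the 44 were negative (75%, against 51.0% of all genes). Both GSK-LSD1 libraries lay below both Vehicle libraries for 27 genes (61.4%, against 30.2% of all genes) and above both for 7 genes (15.9%, against 30.0%), namely SUV39H2, SETD7, SMYD3, ASH1L, EED, DNMT3B and TET2. In bulk RNA, fewer cells of a kind and less RNA per cell cannot be told apart.

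The largest fall was that of KDM6B, followed among the demethylases by KDM4B. KDM6B, also called JMJD3, removes methyl groups from H3K27 and lies at chr17:7834210-7854796. Its TMM-normalized level was 60.8 and 50.8 CPM (counts scaled to library size) in the Vehicle libraries and 34.5 and 45.1 CPM in the GSK-LSD1 libraries. The 4 values did not overlap between groups, although each pair was spread. KDM6B fell by 28.6% (log2 fold change -0.49, SE 0.12, edgeR adjusted p = 0.0160), and without GSK-LSD1 1 the log2 fold change was -0.30 with no call. KDM4B, an H3K9 demethylase at chr19:4969087-5153603, had 85.4 and 80.4 CPM in Vehicle and 64.8 and 70.4 CPM in GSK-LSD1 and fell by 18.4% (log2 fold change -0.29, SE 0.06, edgeR adjusted p = 0.0102). KDM3B, another H3K9 demethylase, at chr5:138352685-138437027, went from 113 and 120.0 CPM to 101 and 103 CPM, a fall of 12.6% (log2 fold change -0.19, SE 0.05, edgeR adjusted p = 0.0291). In both genes the groups were separate and the GSK-LSD1 pair was the lower. Neither gene kept its call in 1 fit over all 8 libraries (edgeR adjusted p = 0.302 for KDM4B) or without GSK-LSD1 1. KDM3B also lost its call with DESeq2 (adjusted p = 0.0768) and without Vehicle 2 or GSK-LSD1 2. The other 4 H3K9 demethylases, KDM3A, KDM4A, KDM4C and KDM7A, did not pass, with log2 fold changes from -0.26 to 0.07.

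Of the H3K4 demethylases, KDM5B fell and its paralogues did not pass. KDM5B, which removes H3K4 trimethylation, lies at chr1:202724495-202809470 and had 138 and 129 CPM in Vehicle and 116 and 115 CPM in GSK-LSD1. It fell by 13.5% (log2 fold change -0.21, SE 0.05, edgeR adjusted p = 0.0196). In 1 fit over all 8 libraries KDM5B did not pass (edgeR adjusted p = 0.466), and on leaving out a library its log2 fold change was -0.26 to -0.16. Its call was also lost without Vehicle 1, GSK-LSD1 1 or GSK-LSD1 2. KDM5A and KDM5C, with the same activity, had log2 fold changes of 0.02 (SE 0.06) and 0.00 (SE 0.05). The difference between these paralogues was not tested. The 3 H3K36 demethylases, KDM2A, KDM2B and KDM8, had both GSK-LSD1 libraries below both Vehicle libraries with log2 fold changes from -0.23 to -0.12, and none passed the adjusted threshold.

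Methyltransferases of H3K4 went both ways in sign, but only falls passed. SETD1A and SETD1B are the catalytic subunits of the SET1 complexes, which lay down most H3K4 trimethylation at promoters. SETD1B, at chr12:121803665-121832656, had 87.6 and 83.5 CPM in Vehicle and 64.0 and 72.2 CPM in GSK-LSD1, a fall of 20.4% (log2 fold change -0.33, SE 0.07, edgeR adjusted p = 0.00783). SETD1A, at chr16:30956618-30984664, had 92.6 and 87.6 CPM in Vehicle and 71.3 and 79.8 CPM in GSK-LSD1, a fall of 16.2% (log2 fold change -0.25, SE 0.07, edgeR adjusted p = 0.0235). In both genes GSK-LSD1 1 was the lowest library, and neither kept its call without it or in 1 fit over all 8 libraries. SETD7, which monomethylates H3K4, and SMYD3 lay higher in both GSK-LSD1 libraries without passing. SMYD3 had 23.7 and 26.5 CPM in Vehicle and 29.6 and 27.4 CPM in GSK-LSD1 (log2 fold change 0.18, SE 0.09, edgeR adjusted p = 0.181).

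The H3K9 methyltransferases EHMT1 (GLP, chr9:137619001-137836127) and EHMT2 (G9a, chr6:31879759-31897698) form a heterodimer that mono- and dimethylates H3K9, and both fell by a similar amount. EHMT1 had 121 and 122 CPM in Vehicle and 101 and 104 CPM in GSK-LSD1, a fall of 15.3% (log2 fold change -0.24, SE 0.05, edgeR adjusted p = 0.00889). EHMT2 had 138 and 140.2 CPM in Vehicle and 117 and 122 CPM in GSK-LSD1, a fall of 14.5% (log2 fold change -0.23, SE 0.05, edgeR adjusted p = 0.0106). These pairs were tight, and the groups were separate in both genes. In 1 fit over all 8 libraries neither passed (edgeR adjusted p = 0.249 for EHMT1 and 0.335 for EHMT2). On leaving out a library the log2 fold changes were -0.26 to -0.21 for EHMT1 and -0.25 to -0.19 for EHMT2. Both genes lost their call without either GSK-LSD1 library. SUV39H2, which trimethylates H3K9 in heterochromatin, had the highest positive value of the set, with 11.7 and 11.9 CPM in Vehicle against 14.2 and 13.1 CPM in GSK-LSD1, and did not pass (log2 fold change 0.21, SE 0.10, edgeR adjusted p = 0.187). SETDB1, SETDB2 and SUV39H1 had log2 fold changes from -0.21 to -0.07 and did not pass.

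Of the 7 H3K36 methyltransferases 2 fell. SETD2, which trimethylates H3K36, at chr3:47016431-47164113, had 102 and 100.5 CPM in Vehicle and 87.2 and 89.9 CPM in GSK-LSD1 and fell by 12.4% (log2 fold change -0.19, SE 0.05, edgeR adjusted p = 0.0302). The call of SETD2 was lost with DESeq2 (adjusted p = 0.0957), in 1 fit over all 8 libraries and without either GSK-LSD1 library. NSD3, at chr8:38269704-38382271, had 105 and 103 CPM in Vehicle and 92.6 and 93.0 CPM in GSK-LSD1 and fell by 10.8% (log2 fold change -0.17, SE 0.05, edgeR adjusted p = 0.0490). NSD3 had the smallest fall of the 12 and lost its call in 9 of 13 alternatives. NSD1, NSD2, SETD5, ASH1L and SMYD2 had log2 fold changes from -0.22 to 0.10 and did not pass, nor did DOT1L, the H3K79 methyltransferase (log2 fold change -0.24, SE 0.08, edgeR adjusted p = 0.0705).

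PRC2 showed no call among EZH1, EZH2, EED, SUZ12 and JARID2, with log2 fold changes from -0.14 to 0.18. EZH2 had 79.1 and 75.6 CPM in Vehicle and 78.0 and 75.0 CPM in GSK-LSD1, and these values overlapped. EED, the subunit that binds H3K27 trimethylation, had 36.2 and 36.4 CPM in Vehicle and 39.6 and 42.5 CPM in GSK-LSD1 (log2 fold change 0.18, SE 0.07, edgeR adjusted p = 0.101). For H4K20, KMT5C, which trimethylates it, at chr19:55339876-55348121, fell from 27.4 and 21.1 CPM to 18.6 and 18.5 CPM. The Vehicle pair was spread here, and the fall of 23.7% (log2 fold change -0.39, SE 0.12, edgeR adjusted p = 0.0458) shrank to a log2 fold change of -0.19 with no call without Vehicle 1. KMT5A and KMT5B had log2 fold changes of -0.04 and -0.03.

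TET3, which oxidises 5-methylcytosine, had the smallest adjusted p of the set. It lies at chr2:73982036-74135394 and had 43.7 and 41.4 CPM in Vehicle and 32.4 and 33.4 CPM in GSK-LSD1. TET3 fell by 22.6% (log2 fold change -0.37, SE 0.07, edgeR adjusted p = 0.00469), and both pairs were tight. In 1 fit over all 8 libraries TET3 did not pass (edgeR adjusted p = 0.153). It also lost its call without GSK-LSD1 1, where the log2 fold change was -0.34. TET2, its paralogue, had 14.2 and 15.4 CPM in Vehicle and 16.3 and 16.8 CPM in GSK-LSD1 (log2 fold change 0.16, SE 0.10, edgeR adjusted p = 0.294). None of the 3 DNA methyltransferases passed, with log2 fold changes of -0.13 for DNMT1, -0.17 for DNMT3A and 0.14 for DNMT3B.

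**Figure D3:**
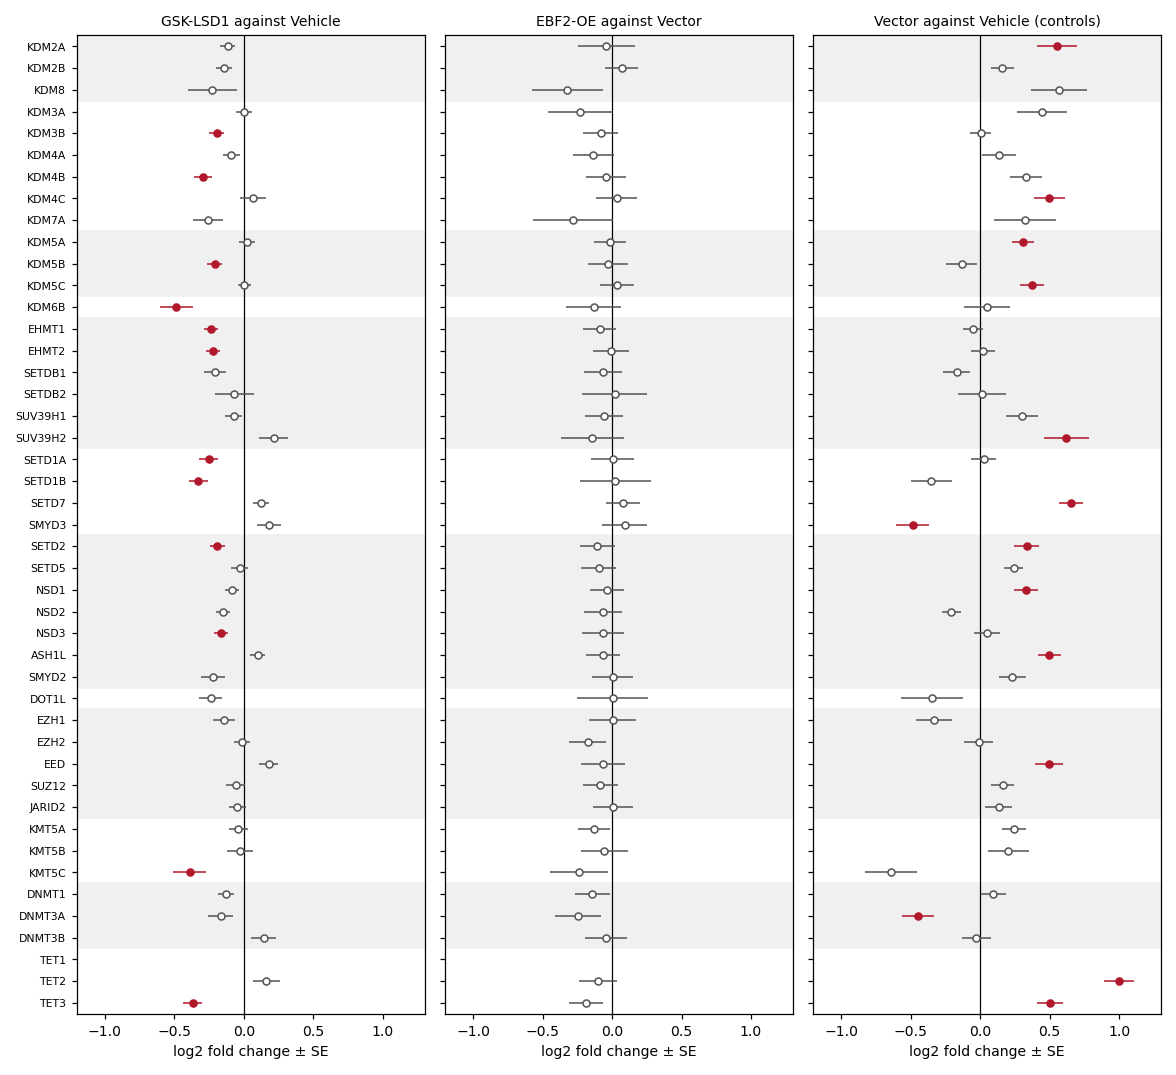
log2 fold change (points) with its SE (bars) for the 44 genes tested, in GSK-LSD1 against Vehicle, EBF2-OE against Vector and Vector against Vehicle, with filled red points for an adjusted p under 0.05 and shading by enzyme class. The first panel holds 12 filled points, all left of 0, the second holds 0 and the third holds 14, of which 12 are right of 0.

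**Figure D4:**
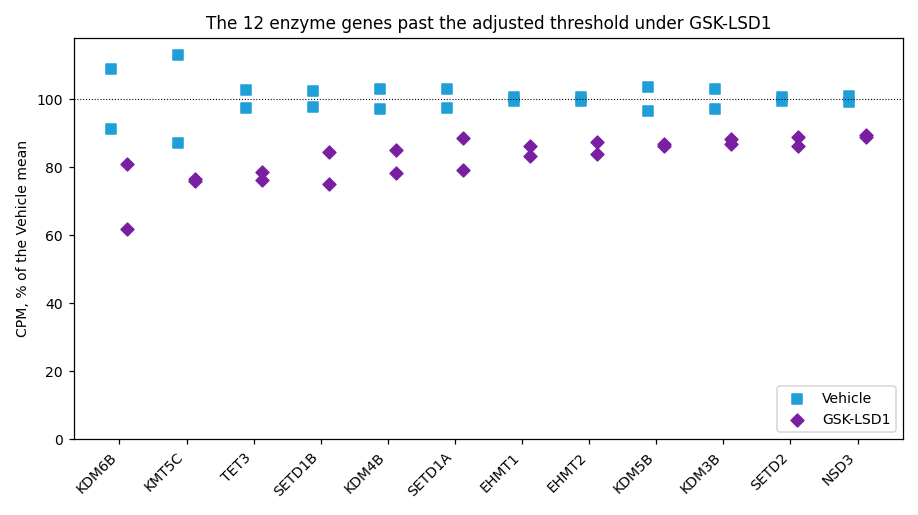
TMM-normalized CPM of each Vehicle (squares) and GSK-LSD1 (diamonds) library as a percent of the Vehicle mean, for the 12 genes with an adjusted p under 0.05, ordered by log2 fold change. For each gene both GSK-LSD1 libraries lie below both Vehicle libraries.

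The number of calls differed between settings, and so did the share of all genes that fell. The sizes of the falls also moved for some genes. On leaving out a library, the log2 fold change of KMT5C was -0.57 to -0.19 and that of KDM6B -0.69 to -0.30. In 1 fit over all 8 libraries, which shares the wider spread of the Vector and EBF2-OE libraries, 0 of the 44 genes passed, and 0.109% of all 16558 genes fell. The 12 genes had log2 fold changes of -0.48 to -0.16 there, with adjusted p-values of 0.153 to 0.602. Without GSK-LSD1 1 the count was 0, where 2.59% of all genes fell, and without GSK-LSD1 2 it was 5, where 3.28% fell. It was 10 without Vehicle 1 and 12 without Vehicle 2, where 7.42% and 11.3% of all genes fell. With DESeq2 8 of the 12 passed, and KDM3B, SETD2, KMT5C and NSD3 did not (adjusted p 0.0768 to 0.165). Of the 25498 genes entered there 3.34% fell. That total includes low-count genes, such as TET1, to which DESeq2 gave no adjusted p, so this share is not like that of edgeR.

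Transcript GC content moved with the same comparison. All genes in the highest GC tertile had a median log2 fold change of -0.07 and 16.4% of them fell, against 0.04 and 3.71% in the lowest tertile. The 12 genes that fell had GC contents of 42.0 to 66.0% with a median of 58.9%, the other 32 members tested had a median of 49.3%, and 7 of the 12 lay in the highest tertile, which held 12 members. Members' medians were -0.03, -0.09 and -0.24 from the lowest to the highest tertile, each below that of all genes in the tertile. After each library was adjusted for GC content, 11 members fell and 0 rose, where 9.86% of all genes fell, and the 11 held 10 of the 12, without KMT5C and SETD1A and with NSD2.

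Some proliferation genes and epithelial keratins fell in the same libraries. Of 16 proliferation genes 6 fell and 0 rose (MKI67, MCM2, MCM3, MCM5, MCM7 and CCNA2), with a list median of -0.12. Among all genes tested 8.87% fell and 9.86% rose, with a median of -0.01. Of the 7 epithelial markers 5 were tested, and KRT7, KRT8 and KRT18 fell, with log2 fold changes of -0.69, -0.30 and -0.45. MUC1 and CDH1 did not pass, with positive log2 fold changes of 0.16 (SE 0.09) and 0.20 (SE 0.25). Of the 12 markers of other cell types 6 were tested, and CD68, COL1A1 and COL1A2 rose, with log2 fold changes of 0.55, 0.26 and 0.52. PECAM1, VWF and LUM did not pass, while PTPRC, CD3E and ALB had at most 0.122 TPM in any library. The part of these genes in the falls of the enzymes was not tested.

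Around the 45 genes, 74 further genes of the same systems were counted, namely KDM1 and KMT2 enzymes, other demethylases and methyltransferases, PRC1 and accessory PRC2 subunits, partners of H3K9 and DNA methylation, and cofactor enzymes. Under GSK-LSD1 13 of the 74 fell and 1 rose, where 8.87% of all genes tested fell and 9.86% rose. The median log2 fold change of the 74 was -0.06, against -0.01 for all genes. KDM1A, the target of the inhibitor, fell by 13.9% (266 and 232 CPM in Vehicle, 213 and 216 CPM in GSK-LSD1, log2 fold change -0.22, SE 0.06, edgeR adjusted p = 0.0403), whereas its paralogue KDM1B rose by 38.2% (20.5 and 20.3 CPM against 28.7 and 27.6 CPM, log2 fold change 0.47, SE 0.08, edgeR adjusted p = 0.00339). The PRC1 subunits PCGF2, PCGF6, CBX2 and PHC2 were among the falls (4 of 16), as were TRIM28, the corepressor that recruits SETDB1 (log2 fold change -0.27), and WIZ, a partner of EHMT1 and EHMT2 (log2 fold change -0.29). UHRF1, which brings DNMT1 to replicated DNA, fell with a log2 fold change of -0.20.

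EBF2-OE was compared with Vector in a separate fit. In edgeR 0 of the 44 genes passed at any fold, as did 0% of all 15560 genes, and 0 passed at an unadjusted p under 0.05, where 208 of all genes did, or by DESeq2. The smallest edgeR adjusted p of all genes was 0.208. EBF2 itself, with 28 counts in both Vector libraries and 5818 and 90100 in EBF2-OE, thus did not pass either. The absence of calls therefore does not show that the enzyme genes were unchanged. Log2 fold changes of the 44 genes ran from -0.32 to 0.09 with SEs of 0.11 to 0.29, and their median was -0.06 against 0.00 for all genes. The biological coefficient of variation was 19.0% here against 5.87% in the GSK-LSD1 comparison, and the SE of TET3, for example, was 0.12 against 0.07. In sign, 32 of the 44 genes were negative (72.7%, against 49.1% of all genes). Both EBF2-OE libraries lay below both Vector libraries for 8 genes (18.2%, against 10.8% of all genes), namely KDM8, EHMT1, EZH2, KMT5A, DNMT1, DNMT3A, TET2 and TET3, and above both for 0 genes (against 12.1%).

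The lowest values under EBF2 belonged to KDM8, KDM7A and DNMT3A, and the highest to SMYD3, SETD7 and KDM2B. KDM8, classed as an H3K36 demethylase, had 4.66 and 5.38 CPM in Vector and 3.92 and 4.10 CPM in EBF2-OE (log2 fold change -0.32, SE 0.26). KDM7A, which removes methyl groups from H3K9 and H3K27, had 20.4 and 13.3 CPM in Vector and 16.5 and 11.2 CPM in EBF2-OE (log2 fold change -0.28, SE 0.29), with overlapping groups, and its sign turned to 0.06 without Vector 2. DNMT3A had 19.4 and 17.7 CPM in Vector and 16.3 and 15.0 CPM in EBF2-OE (log2 fold change -0.24, SE 0.16). Thus the EBF2-OE pair was below the Vector pair for KDM8 and DNMT3A but not for KDM7A. SMYD3 had 17.4 and 17.8 CPM in Vector and 19.8 and 17.6 CPM in EBF2-OE (log2 fold change 0.09, SE 0.16), SETD7 had 103 and 111 CPM against 117 and 110.0 CPM (0.08, SE 0.12), and KDM2B had 74.8 and 71.7 CPM against 73.7 and 80.0 CPM (0.07, SE 0.12). Groups overlapped for these 3 genes, and SMYD3 changed sign to -0.00 without EBF2-OE 2. All of these had edgeR adjusted p-values of 1.00. Of the 74 further genes 73 were tested and 0 passed, and of the 16 proliferation genes 0 passed, with a median of -0.07.

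Whether the effects of GSK-LSD1 and EBF2 differed was tested gene by gene over all 8 libraries. For 0 of the 44 genes did the difference pass the adjusted threshold, 0 had an unadjusted p under 0.05, and DESeq2 also gave 0. The difference, EBF2 effect minus GSK-LSD1 effect, ran from -0.36 to 0.35 on the log2 scale with SEs of 0.11 to 0.33, and none of these differences could be resolved. That the 12 genes passed under GSK-LSD1 and not under EBF2 is therefore not shown to be a difference between the treatments.

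Vector was compared with Vehicle as a comparison of the controls, and the presence of the vector and the experiment cannot be told apart in that comparison. It shares the Vehicle libraries with the GSK-LSD1 comparison. With the fold limit 3 of the 44 genes were called, against 16.0% of all 16019 genes, and all 3 were higher in Vector. TET2 had 14.1 and 15.3 CPM in Vehicle and 29.5 and 29.3 CPM in Vector, a rise of 99.9% (log2 fold change 1.00, SE 0.11, edgeR adjusted p = 0.00828). SETD7 had 67.1 and 71.0 CPM in Vehicle and 105 and 113 CPM in Vector (log2 fold change 0.66, SE 0.09, edgeR adjusted p = 0.0103), and SUV39H2 had 11.6 and 11.8 CPM in Vehicle and 20.2 and 15.8 CPM in Vector (log2 fold change 0.62, SE 0.16, edgeR adjusted p = 0.0414). The groups were separate for all 3 genes, and the Vector pair of SUV39H2 was spread. At any fold 12 genes were higher (27.3%, against 13.6% of all genes), with ASH1L, EED, KDM2A, KDM4C, KDM5A, KDM5C, NSD1, SETD2 and TET3 beside these 3, and 2 were lower (against 13.2%), SMYD3 and DNMT3A. Here, too, the median SE of the 44 genes was smaller, at 0.103 against 0.148 for all genes.

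Between the controls, too, values moved with GC content, with a median over all genes of 0.16 in the lowest tertile and -0.20 in the highest. When adjusted for GC content 1 gene was called with the fold limit, TET2. At any fold 12 passed, while 27.5% of all genes did, near the share of 12 in 44. By direction 10 of the 12 were higher and 2 lower, where 12.9% of all genes were lower. Adjusted for GC content and length, 8 were higher and 3 lower at any fold, where 12.9% of all genes were lower. The counts on leaving out a library followed the whole table. Without Vehicle 1 or Vehicle 2 0 of the set passed, where 0.0722% and 1.41% of all genes did, and 28 passed without Vector 2 and 20 without Vector 3, where 48.8% and 39.4% of all genes did. Of the 74 further genes 11 were called with the fold limit, where 16.0% of all genes were. At any fold 10 of the 74 were higher and 11 lower, where 13.6% and 13.2% of all genes were.

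The strand setting of the counting is not given in the sources used here, so a read in exons of both strands may have been counted for the wrong gene. In the GENCODE annotation, the exons of SUV39H1 overlap opposite-strand exons over 21.2% of their length, those of KDM8 over 14.5%, SETDB1 12.9%, DOT1L 11.3%, KDM4A 9.12% and EHMT2 8.11%. KDM4A also shares 40.2% with a gene on the same strand.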

How the data were processed

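Poly(A)-selected RNA of 8 libraries was sequenced with paired ends of 150 bases. The authors used HISAT2 (default settings, hg38) and HTSeq, and deposited raw counts per gene and TPM, which was checked to follow from count and listed gene length. Counts were fitted per comparison in edgeR 4.0.16 (R 4.3.3) with TMM factors and filterByExpr at a minimum count of 10 (quasi-likelihood test), with two-sided p-values adjusted by Benjamini-Hochberg over all genes tested. A call needed a fold change above 1.5 and an adjusted p under 0.05, or the latter alone (at any fold). CPM uses TMM factors, and the SE comes from the test statistic. The difference of the treatment effects was an interaction over 8 libraries.

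Alternatives were DESeq2 1.42.0 or its size factors, other low-count filters (none, or 10 counts in every library), 1 fit over 8 libraries, a replicate block, unadjusted p-values and leaving out each library. Adjustments for GC content and length (lowess, span 0.3) were chosen after seeing the data. The tests were tried on simulated data. GC content and overlaps came from GENCODE release 44.

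The genes and lists were chosen with earlier results of these data known. Full values are given for genes past the adjusted threshold in a treatment comparison, for the 3 highest and 3 lowest log2 fold changes of each treatment, and for up to 3 called genes per direction between the controls. EHMT2, DNMT1, KDM5C, EZH2, TET2, DOT1L and the printed promoters were singled out after their values were seen. Depth was 20453362 to 27054876 counts, and reads without molecular identifiers bound counting error only.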

Additional observations from a re-analysis of the deposited data

Results flagged for a closer look

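TET2 had opposite signs in the treatment comparisons and passed in neither edgeR fit. Both EBF2-OE libraries, at 26.4 and 27.5 CPM, lay below both Vector libraries, at 29.1 and 28.8 CPM, with a log2 fold change of -0.10 (SE 0.14), whereas both GSK-LSD1 libraries lay above both Vehicle libraries with a log2 fold change of 0.16 (SE 0.10). The opposite order of the libraries is what drew attention to it. Of 15260 genes tested in both comparisons, 2.71% had this order and 5.47% an opposite order either way, against 1 of the 44 genes here (2.27%). The interaction test gave a difference of -0.27 (SE 0.15, edgeR adjusted p = 0.731), which did not pass.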

How the results depend on the processing

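Under GSK-LSD1 the count of genes past the adjusted threshold at any fold, 12 as reported, was 8 with DESeq2, 11 with its size factors in edgeR, 12 with no low-count filter and with at least 10 counts in every library, 10 with the replicate block (SETD2 and NSD3 lost, adjusted p 0.0543 and 0.0894), 11 over genes with a GC value, 11 adjusted for GC content, 12 adjusted for GC content and length, 20 by unadjusted p (19 of them lower), 0 in 1 fit over all 8 libraries and 0 to 12 on leaving out a library. With the fold limit it was 0 to 1 on leaving out a library, with 1 gene without Vehicle 2 and without GSK-LSD1 2. The log2 fold changes of all 12 stayed negative in each of these settings. Equal counts were not always the same genes. With no low-count filter NSD3 was lost and DOT1L gained. Adjusted for GC content and length, KMT5C and SETD1A were lost and NSD2 and SMYD2 gained. Among all genes, 8.67% fell with DESeq2's size factors in edgeR, 5.91% with no low-count filter and 9.43% with at least 10 counts in every library. With the replicate block 8.51% fell, over genes with a GC value 9.40%, adjusted for GC content 9.86%, and for GC content and length 10.7%. A library left out leaves a lone library, which is assumed to vary like those of the other group. Between Vector and Vehicle, the count with the fold limit, 3 as reported, was 1 adjusted for GC content and 1 adjusted for GC content and length, and 0 to 6 on leaving out a library, and at any fold, 14 as reported, it was 22 by unadjusted p and 0 to 28 on leaving out a library. The cause of these moves was not tested. An unadjusted edgeR p under 0.05 was found for 5247 of all 16059 genes under GSK-LSD1 and for 6945 of 16019 between Vector and Vehicle. No gene of the set passed under EBF2-OE in any setting run (0 throughout, also 0 with the replicate block), and none in the interaction. Signs turned under EBF2-OE for KDM7A without Vector 2 (range -0.60 to 0.0645 on leaving out a library) and for SMYD3 without EBF2-OE 2 (range -0.0014 to 0.17). Over all settings of the genes given with full values, 2 values changed sign, 56 lost the adjusted threshold and 251 stayed on their side of it. All 56 losses were among values that passed in the main fits. The 251 include settings of values that did not pass in the main fit and so could not lose the threshold. Replicate numbers in the labels are 2 and 3 in the EBF2 experiment and 1 and 2 in the other, and their meaning is not given there. Libraries with the same number had correlated deviations from their group means with r = 0.350 across genes for EBF2-OE and Vector and r = -0.0135 for GSK-LSD1 and Vehicle, and with 2 pairs this does not settle whether they are paired. No replicate block could be fitted for Vector against Vehicle, which share 1 number.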
